A study of Homo sapiens with 12 samples.

Results

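The human mitochondrial genome is a small circular chromosome (chrM) that encodes its own mRNAs, rRNAs and tRNAs. All genes placed on chrM by the deposited count files were taken, which gave 37 of the 58721 genes measured: 13 mRNAs, 2 rRNAs and 22 tRNAs. The cells were HepG2, derived from a human liver tumour, in which the cytoplasmic RNA-binding protein IGF2BP3 was knocked down by siRNA (siIGF2BP3) or which received control siRNA (siControl). All cells, controls included, received 100 µg/mL cycloheximide for 4 min before lysis, 2 days after knockdown. Each condition gave 3 Input libraries, which report RNA abundance, and 3 RPF libraries, which hold the 28 to 30 nt fragments left after RNase digestion, so that 4 groups of 3 libraries make up the data. The sources used here do not describe separately the making of Input libraries, and HepG2 is 1 tumour line.

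Both strands of chrM are transcribed as long precursors, and the tRNAs that punctuate them are cut out to release the mRNAs and rRNAs. The mRNAs code for core subunits of respiratory complexes I, III and IV and of the ATP synthase (complex V), and the 12S and 16S rRNAs (MT-RNR1 and MT-RNR2) form the mitochondrial ribosome. That ribosome translates all mitochondrial mRNAs inside the organelle and, unlike the cytosolic ribosome, is not blocked by cycloheximide. The complexes also need many subunits that are encoded in the nucleus and translated in the cytosol.

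On chrM of hg38, which is 16569 bases long in the reference used, 28 of the genes lie on the plus strand and 9 on the minus strand. The minus-strand genes are the mRNA MT-ND6 and 8 tRNAs. The annotated mRNA genes are coding sequence alone, with ATG, ATA or ATT as the first codon in 9, 3 and 1 of them. In 6 of the 13 the length is not a multiple of 3, so that the annotated sequence ends with part of a stop codon. Where coding sequences overlap, a read can belong to both genes, and the pairs are shown here because this bears on their counts, with the start codon of the downstream gene and the stop codon of the upstream gene in capitals. MT-ATP8 (chrM:8366-8572) and MT-ATP6 (chrM:8527-9207) share 46 bases, MT-ND4L (chrM:10470-10766) and MT-ND4 (chrM:10760-12137) share 7, and MT-ATP6 and MT-CO3 (chrM:9207-9990) share 1.
MT-ATP8 and MT-ATP6, chrM:8527-8572, plus strand: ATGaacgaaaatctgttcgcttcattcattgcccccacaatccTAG
MT-ND4L and MT-ND4, chrM:10750-10779, plus strand: acctactccaATGcTAAaactaatcgtccc
MT-ATP6 and MT-CO3, chrM:9196-9218, plus strand: gacaacacaTAATGacccaccaa

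Library totals ran from 11219750 to 14797573 counts in Input and from 13036423 to 31510601 in RPF. The knocked-down gene checked the labels: IGF2BP3 fell from between 127 and 133 CPM (counts scaled to a common library total) to between 97.9 and 105 CPM in Input, and from between 74.6 and 78.1 to between 21.9 and 28.0 CPM in RPF. All 10 hepatocyte markers examined were detected, with ALB between 8278 and 9339 CPM in Input. siControl RPF replicates 2 and 3 differed by less than the sampling noise over all genes and were counted as 1 sample in every mean ± SD, which leaves n = 2 in that group. The edgeR tests kept them as separate libraries. If they are 1 sample, the p-values of tests that use RPF libraries are too small, and fits with the 2 summed are given below as an alternative. Over the chrM genes alone they differed by more than that noise, with a mean chi-square of 4.91 per gene. siIGF2BP3 RPF replicate 1 stood apart from its group, with a mean chi-square per gene of 19.9 and 21.5 against replicates 2 and 3, which gave 1.15 between themselves. Nothing says that replicates were separate cultures, so p-values measure the spread between these libraries, which may be technical.

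Short reads from chrM can also match nuclear copies of mitochondrial DNA, and the deposited counts are fractions where reads were shared. GENCODE names 404 such nuclear copies of the 13 mRNA genes. In RPF, copies held between 46.2% and 46.8% of the sum of MT-CO1 and its 48 copies, and 1 copy, MTCO1P12, reached 983 CPM in siIGF2BP3 RPF. The share was also large for MT-ND2 (40.6% to 42.7%), MT-ATP6 (39.2% to 39.8%) and MT-ATP8 (33.2% to 36.4%), and small for MT-CYB (3.42% to 3.73%) and MT-ND3 (2.40% to 2.97%). In Input the largest shares were those of MT-ATP6, between 9.73% and 11.7%, and of MT-ND2, between 7.49% and 8.13%. RPF levels of these mRNAs are therefore low estimates wherever the shared reads came from chrM. Copies of the rRNA and tRNA genes were not analysed here.

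The make-up of mitochondrial counts differed sharply between Input and RPF libraries. How Input libraries were made is not described separately, so these shares need not be those of the RNA in the cells. The part of library preparation in them was not tested. In siControl Input the mRNAs held 99.1% ± 0.0378 (SD, n = 3) of chrM counts, the rRNAs 0.748% ± 0.0369 and the tRNAs 0.102% ± 0.00447. In siControl RPF the order changed, with 73.8% ± 0.949 (SD, n = 2) in rRNAs, 23.5% ± 1.03 in mRNAs and 2.76% ± 0.0810 in tRNAs. The RPF material was depleted of rRNA with designed oligos before sequencing, and an RPF count of an rRNA or tRNA records a fragment of that size and not a translated message. The ratio of 12S to 16S counts lay between 0.0275 and 0.0442 in Input and between 0.464 and 0.507 in RPF. Per kilobase of gene, MT-RNR1 reached 0.0622 ± 0.0115 (SD, n = 3) of the MT-RNR2 level in siControl Input and 0.799 ± 0.0208 (SD, n = 2) in siControl RPF.

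Levels of the 13 mRNAs were set against each other per kilobase of gene (CPM per kb). These are levels of the counted gene and need not be those of the whole mRNA, as MT-ND4L and MT-ND4 below show. In siControl Input, MT-CO1, the catalytic subunit of complex IV, was highest at 3529 ± 13.5 CPM per kb (SD, n = 3). The complex I subunits MT-ND4 and MT-ND2 followed at 3144 ± 45.7 and 2670 ± 159. These 3 levels were apart by more than their spread. MT-ND6, the only mRNA on the minus strand, was lowest at 176 ± 9.43 CPM per kb, below MT-ND4L at 323 ± 15.1 and MT-ND3 at 467 ± 34.2. In the middle of the order, MT-ND5 (1288 ± 39.4), MT-CYB (1288 ± 55.3) and MT-ND1 (1235 ± 67.1) did not differ beyond their spread, and neither did MT-ATP6 at 1182 ± 14.3 from MT-ND1. In siIGF2BP3 Input the order of the per-kb levels was nearly the same, with a Spearman rho of 0.984 against siControl over the 13 genes.

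In RPF the per-kb order was another. MT-CO1 was again highest, at 760 ± 33.6 CPM per kb in siControl (SD, n = 2), followed by MT-CO2 at 581 ± 16.5, MT-ATP8 at 558 ± 12.5 and MT-CO3 at 538 ± 23.5. MT-ATP8 overlapped both MT-CO2 and MT-CO3 within the spread, and MT-CO2 and MT-CO3 did not overlap each other. MT-ND4 and MT-ND2, next to the top in Input, were at the bottom in RPF with 114 ± 0.136 and 104 ± 2.60 CPM per kb, next to MT-ND4L at 118 ± 3.07. Over the 13 genes, Input and RPF levels per kb in siControl gave a Pearson r of 0.13 and a Spearman rho of 0.16 on the log2 scale. These are descriptions across genes that share libraries and, for 12 of them, a precursor strand. With nuclear copies added, the siControl RPF median of the 13 mRNAs went from 381 to 487 CPM per kb, MT-CO1 stayed highest at 1414 and MT-ND4 became lowest at 135.

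**Figure D1:**
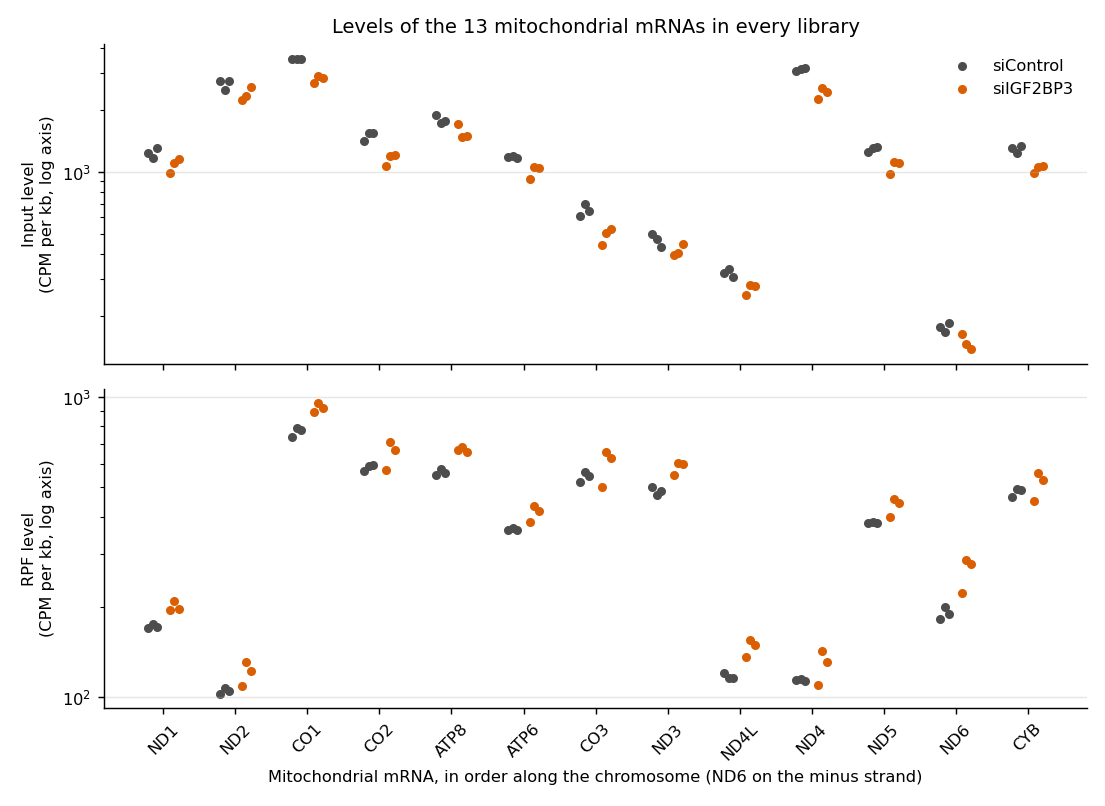
Levels of the 13 mitochondrial mRNAs in CPM per kb of gene on a log axis, in order along the chromosome, for Input (top) and RPF (bottom); each point is 1 of 3 libraries of siControl (grey) or siIGF2BP3 (orange). MT-ND2 and MT-ND4 are near the top in Input and at the bottom in RPF, and MT-CO1 is highest in both.

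Shares by complex also differed between the assays. The 7 complex I mRNAs held 53.3% ± 0.473 (SD, n = 3) of mitochondrial mRNA counts in siControl Input and 32.9% ± 0.699 (SD, n = 2) in siControl RPF. The 3 complex IV mRNAs held 33.9% ± 0.619 in Input and 46.0% ± 0.658 in RPF. MT-CYB, the complex III subunit, held 7.13% ± 0.233 in Input and 12.6% ± 0.178 in RPF, and the pair of complex V mRNAs 5.71% ± 0.143 and 8.39% ± 0.137. For each complex the assays were apart by more than the spread. In siIGF2BP3 the complex I share was 54.0% ± 0.465 in Input and 33.3% ± 0.132 in RPF. The complex III share in RPF was 11.7% ± 0.449 in siIGF2BP3, below the control value by more than the spread, and those of complexes IV and V were 46.7% ± 0.319 and 8.39% ± 0.250.

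Of the overlapping pairs shown above, MT-ND4L with MT-ND4 and MT-ATP8 with MT-ATP6 share a message, and their level ratios differed. MT-ND4L and MT-ND4 are read from the same processed mRNA, yet in siControl Input MT-ND4L reached 0.103 ± 0.0054 (SD, n = 3) of the MT-ND4 level per kb. In siControl RPF the same ratio was 1.03 ± 0.0281 (SD, n = 2), and in siIGF2BP3 it was 0.112 ± 0.0016 in Input and 1.16 ± 0.0766 in RPF (SD, n = 3 each). MT-ATP8 over MT-ATP6, which also share an mRNA, was 1.52 ± 0.0746 in siControl Input and 1.54 ± 0.0272 in siControl RPF. As deposited, the first ratio was thus an order of magnitude apart between assays and the second was within the spread. With nuclear copies added, MT-ATP8 over MT-ATP6 was 1.35 ± 0.0717 in siControl Input and 1.46 ± 0.0227 in siControl RPF, and the libraries of the assays no longer overlapped, while MT-ND4L over MT-ND4 was 0.103 ± 0.0054 and 1.03 ± 0.0205. How counting treated reads in the overlaps is not given in the sources used here.

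RPF over Input was tested per gene within each condition, in a model of all 12 libraries fitted over 20744 genes with edgeR's quasi-likelihood test, and a gene was called when its Benjamini-Hochberg adjusted p was under 0.05. Footprint and Input libraries differ for nearly every gene in such a test, with 90.5% of genes called in siControl (53.5% higher and 37% lower in RPF), and 90.6% in siIGF2BP3 (53.9% and 36.7%). A call here therefore says little by itself, and the sizes are the result. In siControl 34 of the 37 genes were called, 22 higher and 12 lower, and in siIGF2BP3 35 were called, 25 higher and 10 lower. These counts include 15 tRNAs that passed the low-count filter only through RPF, so their higher RPF followed from the filter and is no result. Among the genes that passed in both assays, siControl had 2 rRNAs and 5 of 7 tRNAs called higher. The same test called 11 of 13 mRNAs and 1 tRNA lower. In siIGF2BP3, 3 mRNAs, 2 rRNAs and 5 tRNAs were called higher and 10 mRNAs lower. Sizes are given only for the 13 mRNAs, 2 rRNAs and 7 tRNAs that passed the low-count filter in both assays, since the other 15 tRNAs had between 0 and 18 counts per Input library.

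Most mitochondrial mRNAs were lower in RPF than in Input relative to the library. In siControl 11 of the 13 were called lower and none higher, with a median log2 ratio of -1.64, whereas the median over all genes tested was 0.45. MT-ND4 and MT-ND2 were lowest at -4.75 ± 0.07 and -4.64 ± 0.07 (log2 ± SE, adjusted p 5.64e-18 and 3.00e-18). MT-ND1 (-2.81 ± 0.06) and MT-CO1 (-2.17 ± 0.05) came next. MT-ND4L, on the same mRNA as MT-ND4, was at 0.103 of its level per kb in siControl Input and at 1.03 in siControl RPF. The size given for 1 gene therefore need not hold for its whole mRNA. MT-CO3, a complex IV subunit, was at -0.23 ± 0.08 with an adjusted p of 0.0167. MT-ND3 at 0.09 ± 0.06 and MT-ND6 at 0.15 ± 0.08 did not pass the test (adjusted p 0.132 and 0.0900). Adding nuclear copies raised the ratios of MT-CO1 to -1.30, MT-ND2 to -3.99 and MT-ND6 to 0.54 (adjusted p 1.33e-05), and turned MT-CO3 to 0.12 (adjusted p 0.154). In siIGF2BP3 the median of the 13 was -1.09, with 10 called lower and 3 higher (MT-CO3 at 0.40, MT-ND3 at 0.62 and MT-ND6 at 0.94).

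Nuclear-encoded subunits of the same complexes had positive medians but went both ways. Their median log2 RPF over Input in siControl was 0.93 for the 37 complex I genes listed, 0.39 for 9 of complex III, 0.78 for 11 of complex IV and 0.88 for 18 of complex V. The corresponding mitochondrial medians were -1.72, -1.38, -1.32 and -1.65. Of the nuclear genes, 31 of 37 in complex I, 6 of 9 in complex III, 6 of 11 in complex IV and 14 of 18 in complex V were called higher in RPF, and 4, 2, 4 and 4 were called lower, among them COX7C at -2.18 ± 0.05, NDUFA5 at -1.61 ± 0.06 and UQCRB at -1.37 ± 0.07. Lysis with 0.5% NP-40 and clearing of the lysate preceded both kinds of library as far as the labels say, and the part of lysis, size selection and nuclease digestion in the difference between compartments was not tested.

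The rRNAs and most of the 7 tRNAs that passed the filter in both assays were higher in RPF than in Input libraries. The part of library preparation in this was not tested. MT-RNR1 held between 4.44 and 6.61 CPM in siControl Input and between 4153 and 4889 CPM in siControl RPF, a log2 ratio of 9.69 ± 0.15 (adjusted p 1.99e-15). MT-RNR2 went from between 144 and 157 to between 8650.3 and 9687 CPM, a log2 ratio of 5.99 ± 0.09 (adjusted p 3.71e-17). Of the 7 tRNAs measured in both assays, 5 were called higher in RPF in siControl, up to MT-TP (tRNA for proline) at 5.18 ± 0.18. MT-TK (tRNA for lysine) was called lower at -1.03 ± 0.12, and MT-TW (tRNA for tryptophan) was at -0.41 ± 0.21 with an adjusted p of 0.142.

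**Figure D2:**
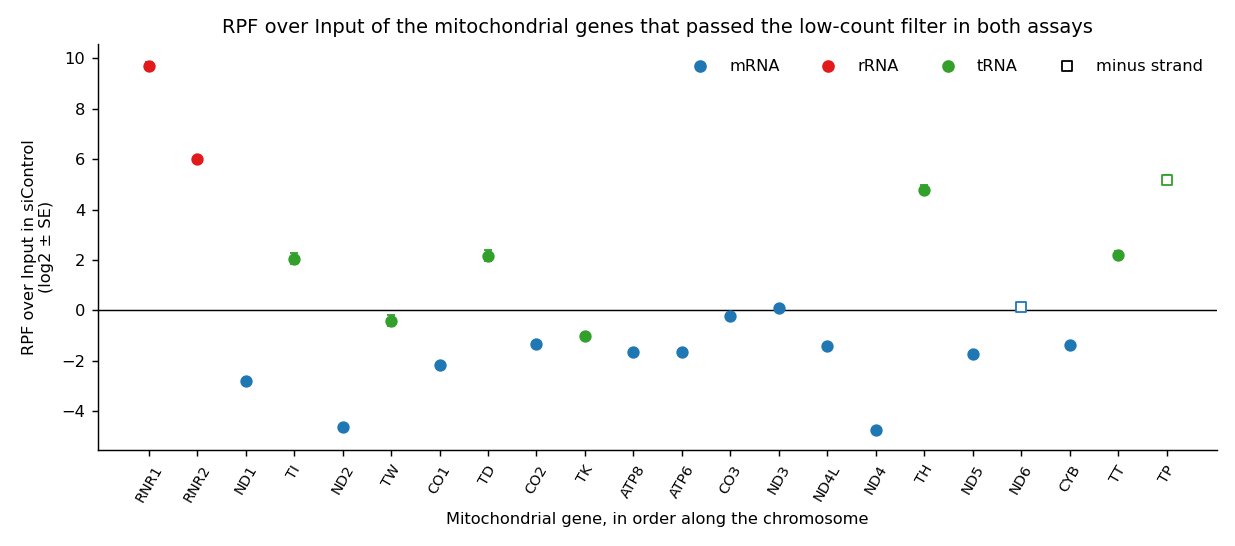
Log2 RPF over Input in siControl (± SE from the edgeR fit over 12 libraries) for the 22 mitochondrial genes that passed the low-count filter in both assays, in order along the chromosome. The rRNAs lie at 9.69 and 5.99, the mRNAs between -4.75 and 0.15, and open squares mark the minus-strand genes MT-ND6 and MT-TP.

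After IGF2BP3 knockdown, every mitochondrial mRNA fell in Input. The RNA comparison (siIGF2BP3 against siControl Input, edgeR quasi-likelihood test over 14759 genes) called 5.96% of all genes, 4.05% higher and 1.9% lower. Of the 37 mitochondrial genes, 22 passed its low-count filter, and all 13 mRNAs were called lower while neither rRNA and none of the 7 tRNAs was called in either direction. The log2 changes of the mRNAs ran from -0.45 ± 0.06 (SE) in MT-CO3 to -0.21 ± 0.05 in MT-ND2, with a median of -0.31 where the median of all genes was 0.00231. On the fold scale the mRNAs were at 0.731 to 0.863 of the control level.

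The 3 complex IV mRNAs code for the core of cytochrome c oxidase. MT-CO1 held 5460.4, 5447 and 5419 CPM in siControl Input and 4135, 4491 and 4411 CPM in siIGF2BP3 Input, a log2 change of -0.37 ± 0.05 (adjusted p 9.45e-06). MT-CO2, which takes up electrons from cytochrome c, held 963, 1051 and 1057 CPM in siControl and 728, 819 and 828 CPM in siIGF2BP3, a change of -0.42 ± 0.05 (adjusted p 9.07e-06). The groups did not overlap for either gene. For MT-CO3 the Input values were 479.8, 546 and 506 CPM in siControl and 347, 396 and 414 CPM in siIGF2BP3, again apart (adjusted p 9.55e-06).

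The complex I mRNAs, all membrane subunits of NADH dehydrogenase, fell by varying amounts. The largest of these falls was that of MT-ND4, from 4264, 4345 and 4388 CPM to 3097, 3505 and 3368 CPM, a log2 change of -0.43 ± 0.05 (adjusted p 7.03e-06). MT-ND5 went from 2255, 2357 and 2392 CPM to 1774, 2029 and 1991 CPM, with a change of -0.32 ± 0.05 (adjusted p 0.000195). MT-ND4L went from 95.7, 100.4 and 91.5 CPM to 74.5, 83.3 and 82.4 CPM, a change of -0.31 ± 0.06 (adjusted p 0.00138). For these genes the siIGF2BP3 values were all lower than the control values.

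For the remaining complex I mRNAs the separation was smaller. MT-ND1 held 1184, 1114 and 1242 CPM in siControl and 942, 1049.6 and 1097 CPM in siIGF2BP3 (log2 change -0.24 ± 0.05, adjusted p 0.00412). MT-ND6, from the other strand, held 93.1, 87.2 and 97.1 CPM against 85.5, 76.5 and 72.3 CPM (-0.29 ± 0.06, adjusted p 0.00435). In both the groups were still apart. MT-ND2, at 2886, 2591 and 2868 CPM against 2326, 2430.3 and 2683 CPM, and MT-ND3, at 173, 162 and 149 CPM against 137, 140.2 and 154 CPM, overlapped between groups, with adjusted p of 0.0121 and 0.0134. They and MT-ND1 were the mRNAs whose calls were lost when certain single libraries were left out, which put the count of called mitochondrial genes between 11 and 14.

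MT-CYB, the cytochrome b of complex III, fell from 1494, 1398 and 1517 CPM to 1119, 1199 and 1212 CPM (log2 change -0.37 ± 0.05, adjusted p 1.06e-05). Of the complex V mRNAs, which code for membrane subunits of the ATP synthase, MT-ATP6 went from 807, 814 and 795 CPM to 627, 721 and 713 CPM (-0.28 ± 0.05, adjusted p 0.000790). MT-ATP8 went from 391, 357 and 365 CPM to 353, 306 and 307 CPM (-0.25 ± 0.05, adjusted p 0.00375). The groups did not overlap for any of the 3. Over all 13 mRNAs the groups were apart in 11, with siIGF2BP3 lower in each, whereas siIGF2BP3 was wholly lower in 5.77% of 14128 nuclear genes with a mean of at least 1 CPM.

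The rRNAs were low in Input and overlapped between groups. MT-RNR2 held 157, 149 and 144 CPM in siControl and 124, 142 and 153 CPM in siIGF2BP3 (log2 change -0.15 ± 0.06, adjusted p 0.125). For MT-RNR1 the change was -0.28 ± 0.19 (adjusted p 0.423) at 42.3 to 82.7 counts per library. Changes of the 7 tRNAs tested lay between -0.51 and 0.08 with SEs up to 0.40, so that for a single tRNA a fall of the size seen in the mRNAs was not detectable at this depth. Summed over the 22 tRNAs, their share of the library was 0.00217%, 0.00199% and 0.00220% in siControl Input and 0.00192%, 0.00185% and 0.00176% in siIGF2BP3 Input, without overlap, on 200.2 to 294 counts per library (exact two-sided permutation p = 0.1, the smallest possible, and 0.24 after adjustment over the 6 shares).

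As a share of the library, mitochondrial mRNA went from 2.06% ± 0.0263 in siControl Input to 1.68% ± 0.0894 in siIGF2BP3 Input (SD, n = 3 each), a ratio of 0.814. The libraries held 2.05%, 2.04% and 2.09% in siControl and 1.57%, 1.72% and 1.73% in siIGF2BP3 and did not overlap. An exact two-sided permutation test gave p = 0.1, the smallest that 3 against 3 libraries allow, and 0.24 after Benjamini-Hochberg adjustment over the 6 shares compared (3 RNA classes in each assay). In bulk RNA, fewer mitochondria per cell and less RNA per mitochondrion cannot be told apart.

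**Figure D3:**
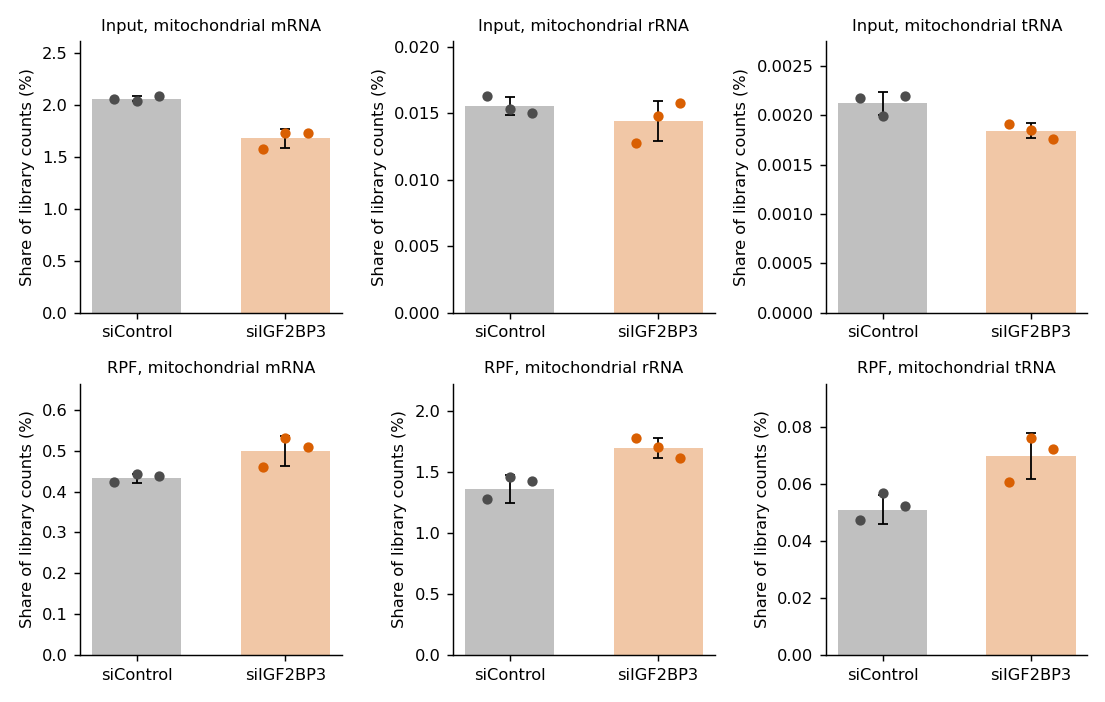
Share of all library counts (%) held by mitochondrial mRNA, rRNA and tRNA in Input (top) and RPF (bottom); points are libraries, bars are means and error bars the SD (n = 3, but n = 2 for siControl RPF, where replicates 2 and 3 count as 1). mRNA falls from 2.06% to 1.68% in Input, and all 3 classes are higher in siIGF2BP3 than in siControl in RPF.

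In RPF the mitochondrial RNAs moved the other way. The RPF comparison (siIGF2BP3 against siControl RPF, edgeR over 20192 genes) called 1.66% of all genes, 1.02% higher and 0.649% lower. All 37 mitochondrial genes passed the filter and had a positive log2 change, and 13 were called, all higher: 5 mRNAs and 8 tRNAs. The median log2 change was 0.22 for the mRNAs, 0.31 for the rRNAs and 0.50 for the tRNAs, beside 0.00859 over all genes. The count depended on single libraries, although none of the 13 turned in direction in the alternatives tried. Summing replicates 2 and 3 of siControl RPF left 0 calls, as did leaving out siControl RPF replicate 1, 2 or 3, and 1 call was left without siIGF2BP3 RPF replicate 2 or 3. Leaving out siIGF2BP3 RPF replicate 1 gave 32 calls, when 1643 of 20615 genes were called higher and 1767 lower in all.

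Among the mRNAs, MT-ND6 had the largest RPF change. It held 95.6, 105 and 99.4 CPM in siControl RPF and 116, 150.1 and 146 CPM in siIGF2BP3 RPF, a log2 change of 0.48 ± 0.09 (adjusted p 0.0437). MT-ND4L went from 35.6, 34.3 and 34.3 CPM to 40.5, 46.1 and 44.2 CPM (0.35 ± 0.05, adjusted p 0.0242). MT-ND3 went from 173, 163 and 168 CPM to 191, 209 and 207 CPM (0.29 ± 0.04, adjusted p 0.0260). The groups were apart in each of these genes.

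The other called mRNAs were MT-CO1 and MT-ATP8. MT-CO1 held 1136, 1215 and 1203 CPM in siControl RPF and 1375, 1471 and 1417 CPM in siIGF2BP3 RPF (0.28 ± 0.05, adjusted p 0.0316). For MT-ATP8 the values were 114, 119 and 116 CPM against 138, 142 and 136 CPM (0.27 ± 0.05, adjusted p 0.0441). Neither overlapped between groups. Of the 8 mRNAs that were not called, MT-ND1, MT-ND2, MT-ATP6 and MT-ND5 had separate groups with changes of 0.20 to 0.23, and MT-CO2, MT-CO3, MT-ND4 and MT-CYB overlapped with changes of 0.10 to 0.18. In the last 4 it was siIGF2BP3 RPF replicate 1 that lay within or below the control range, as with MT-CYB at 513, 637 and 605 CPM against 530.1, 564 and 559 CPM.

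Both rRNAs were higher in all siIGF2BP3 RPF libraries without passing the test. MT-RNR1 went from 4153, 4889 and 4691 CPM to 5646, 5695 and 5439.8 CPM (0.31 ± 0.07, adjusted p 0.0813), and MT-RNR2 from 8650.3, 9687 and 9546 CPM to 12171, 11373 and 10721 CPM (0.32 ± 0.07, adjusted p 0.0896). As shares of the RPF library, mRNA went from 0.432% ± 0.0115 (SD, n = 2) to 0.500% ± 0.0368 (SD, n = 3), rRNA from 1.36% ± 0.113 to 1.70% ± 0.0829 and tRNA from 0.0510% ± 0.00510 to 0.0697% ± 0.00810. No class overlapped between groups, and the exact two-sided permutation p was 0.2 in each (0.24 after adjustment), the smallest that 2 against 3 samples allow. Within chrM counts of RPF the class shares did overlap, with mRNA at 22.6% to 24.2% in siControl and 20.0% to 23.2% in siIGF2BP3.

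The tRNA genes gave the largest RPF changes of the chromosome. The sequences below are those of the 8 tRNAs called in RPF and, for comparison, of 2 of the 5 with the highest RPF level that were not called, all in lower case with the anticodon in capitals where a script found a 7-base loop closed by at least 4 of 5 stem pairs (hg38 reference, 5′ to 3′ on the strand of the gene).
MT-TR (arginine), chrM:10405-10469, plus strand: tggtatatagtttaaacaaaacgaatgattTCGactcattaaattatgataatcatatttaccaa
MT-TD (aspartate), chrM:7518-7585, plus strand: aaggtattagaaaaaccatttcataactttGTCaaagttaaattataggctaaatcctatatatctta
MT-TG (glycine), chrM:9991-10058, plus strand: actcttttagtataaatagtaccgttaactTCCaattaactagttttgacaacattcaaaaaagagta
MT-TI (isoleucine), chrM:4263-4331, plus strand: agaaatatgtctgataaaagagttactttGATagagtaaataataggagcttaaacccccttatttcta
MT-TK (lysine), chrM:8295-8364, plus strand: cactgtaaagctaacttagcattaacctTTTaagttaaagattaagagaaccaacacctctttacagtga
MT-TP (proline), chrM:15956-16023, minus strand: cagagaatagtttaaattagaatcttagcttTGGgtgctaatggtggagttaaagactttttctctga
MT-TN (asparagine), chrM:5657-5729, minus strand: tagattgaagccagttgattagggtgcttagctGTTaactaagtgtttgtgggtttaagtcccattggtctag
MT-TY (tyrosine), chrM:5826-5891, minus strand: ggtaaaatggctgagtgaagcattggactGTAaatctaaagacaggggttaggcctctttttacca
MT-TL1 (leucine), chrM:3230-3304, plus strand: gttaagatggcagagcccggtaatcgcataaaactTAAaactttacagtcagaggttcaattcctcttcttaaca
MT-TV (valine), chrM:1602-1670, plus strand: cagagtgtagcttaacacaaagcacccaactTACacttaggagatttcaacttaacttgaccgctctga

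The called tRNAs were mostly those poorest in G and C. The 6 tRNAs with the lowest GC content of all 22, from MT-TR at 23.1% to MT-TP at 33.8%, were all called, and with MT-TN (41.1%) and MT-TY (42.4%) they made up the 8. The 14 others had GC contents of 35.2% to 49.3%. Over the 22 tRNAs, which share libraries, GC content and RPF log2 change gave a Pearson r of -0.72 and a Spearman rho of -0.64. Position along the chromosome gave r = -0.02, and gene length, which spans only 59 to 75 bases, r = -0.15. Nuclear genes of up to 200 bases of exon had medians of 0.45, 0.38, 0.33, 0.48 and 0.37 in rising GC bands (30% to 35%, 35% to 40%, 40% to 45%, 45% to 50%, and 50% or more). Without siIGF2BP3 RPF replicate 1 these medians were 0.47, 0.30, 0.31, 0.30 and 0.17. Without siIGF2BP3 RPF replicate 1 the GC correlation was -0.64. With an offset for each library's trend on exon GC, an alternative added after seeing the data, it was -0.60. This offset left all 22 tRNA changes positive with a median of 0.49. The trend had few genes to rest on where the poorest tRNAs lie. Nuclear genes tested numbered 2 under 30% GC and 159 from 30% to 35%, beside 4 and 2 of the tRNAs. The offset therefore cannot decide whether a GC trend in that range was removed.

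MT-TR held 4.10, 4.19 and 3.93 CPM in siControl RPF and 7.67, 7.63 and 7.06 CPM in siIGF2BP3 RPF, a log2 change of 0.88 ± 0.08 (adjusted p 0.00647). MT-TK went from 3.08, 3.41 and 3.03 CPM to 5.00, 6.17 and 5.62 CPM (0.85 ± 0.10, adjusted p 0.0127), and MT-TP, which lies on the minus strand, from 48.4, 51.0 and 45.6 CPM to 62.9, 73.3 and 68.5 CPM (0.52 ± 0.06, adjusted p 0.0146). The groups were well apart in all 3. MT-TD went from 3.20, 4.12 and 3.37 CPM to 5.72, 6.63 and 6.53 CPM (0.86 ± 0.11, adjusted p 0.0176). MT-TG went from 2.76, 4.02 and 2.87 CPM to 4.86, 5.89 and 6.28 CPM (0.87 ± 0.16, adjusted p 0.0465). Both levels were low, and the groups were again apart.

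The remaining called tRNAs lay near the threshold, as did MT-TG. MT-TN went from 13.7, 16.1 and 14.7 CPM to 18.1, 21.4 and 21.1 CPM (0.47 ± 0.09, adjusted p 0.0441), MT-TY from 4.66, 5.02 and 4.52 CPM to 5.85, 8.84 and 8.36 CPM (0.74 ± 0.14, adjusted p 0.0460), and MT-TI from 7.46, 8.94 and 7.86 CPM to 10.1, 15.1 and 14 CPM (0.73 ± 0.14, adjusted p 0.0484). MT-TI shares 3 bases with MT-TQ on the opposite strand, and MT-TY shares 1 with MT-TC. The most abundant tRNA genes in RPF were not called apart from MT-TP. MT-TS2 (serine) held 83.8, 93.9 and 90 CPM against 90.5, 135 and 126 CPM (0.41 ± 0.12, adjusted p 0.159) and overlapped between groups. MT-TL1, at 75.1, 90.7 and 81.7 CPM against 93.7, 106 and 98.3 CPM (adjusted p 0.130), MT-TV, at 61.1, 80.6 and 71.8 CPM against 99, 96.3 and 91.2 CPM (adjusted p 0.0916), and MT-TE (glutamate), at 42.8, 53.6 and 50.2 CPM against 53.5, 76.8 and 74.1 CPM (adjusted p 0.117), were next in level. The groups were apart for MT-TL1 and MT-TV and met at their edges for MT-TE. Over the 22 tRNAs, the groups were apart in 14 with siIGF2BP3 higher in each, beside 10.8% of 17907 nuclear genes.

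**Figure D4:**
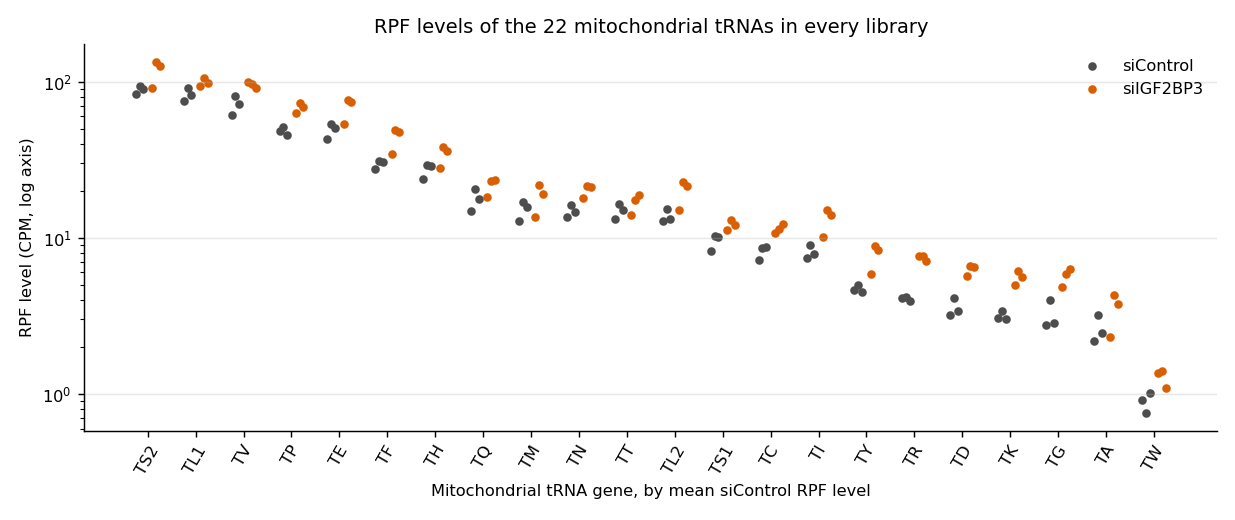
RPF level in CPM (log axis) of the 22 mitochondrial tRNA genes, ordered by their mean in siControl; each point is 1 of 3 libraries of siControl (grey) or siIGF2BP3 (orange). The means in siControl run from 87.8 CPM in MT-TS2 to 0.897 CPM in MT-TW, and 14 of the 22 genes have siIGF2BP3 libraries wholly above the siControl libraries.

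Some other classes of short RNA were also higher in the siIGF2BP3 RPF libraries. Over the 1220 nuclear genes with at most 200 bases of exon, the median RPF log2 change was 0.38, beside 0.0082 over all 20155 nuclear genes tested and 0.50 over the mitochondrial tRNAs. Nuclear snRNA genes held 2.01% to 2.16% of siControl RPF counts and 2.59% to 4.24% of siIGF2BP3 RPF counts, highest in replicate 1, and miRNA genes held 0.0585% to 0.0618% and 0.0791% to 0.0993%. The shares of snoRNA genes overlapped, at 0.349% to 0.376% and 0.362% to 0.423%. With an offset for each library's trend on gene length, 21 of the 22 tRNAs remained positive with a median of 0.28, and the 13 mRNAs kept a median of 0.21. That trend was smoothed over a fraction of 0.3 of the genes at a time, far more than the short genes. It need not have removed the whole shift of genes of tRNA size. The part of these shifts in the rise of the mitochondrial genes was not tested.

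Because RNA and RPF moved in opposite directions, RPF over Input rose for every mitochondrial mRNA. The TE comparison tests this as the interaction of assay and knockdown in 1 edgeR model of all 12 libraries over 13395 genes, and it uses the same libraries as the comparisons above. It called 2.17% of all genes, 0.814% higher and 1.36% lower. Of the 22 mitochondrial genes that passed its filter, 15 were called, all higher: the 13 mRNAs, MT-RNR2 and MT-TK. The mRNA changes ran from 0.44 ± 0.09 in MT-ND2 to 0.78 ± 0.11 in MT-ND6 with a median of 0.53, where all genes had a median of 0.00791, and correspond to 1.36-fold to 1.71-fold. They lay between the 97.4th and the 99.6th percentile of the nuclear protein-coding genes tested.

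MT-CO1 had the smallest adjusted p of the mitochondrial genes in TE, 1.56e-05, at a log2 change of 0.66 ± 0.06. MT-ND4L rose by 0.66 ± 0.09 (adjusted p 0.000539), MT-ND4 by 0.61 ± 0.09 (0.00109 adjusted) and MT-CO3 by 0.60 ± 0.12 (0.0118 adjusted). By complex the medians were 0.53 for the 7 complex I mRNAs, 0.48 for MT-CYB, 0.60 for the 3 complex IV mRNAs and 0.50 for the complex V pair. Differences among complexes were not tested. All 13 mRNAs kept their call in each alternative tried, among them summed control libraries, added nuclear copies, offsets for length or exon GC, and a block for each condition and replicate number, and the total over all mitochondrial genes lay between 14 and 16.

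The rise in TE was not limited to translated RNAs. MT-RNR2 rose by 0.47 ± 0.10 (adjusted p 0.0224), MT-TK by 1.06 ± 0.18 (adjusted p 0.00381), and MT-RNR1 was at 0.59 ± 0.22 (adjusted p 0.184). The call of MT-RNR2 was lost in 6 of 25 alternatives. The median was 0.53 over the rRNAs as over the mRNAs, and the other 6 tRNAs tested had changes of 0.50 to 1.02 without a call. For rRNA and tRNA the ratio does not measure translation.

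**Figure D5:**
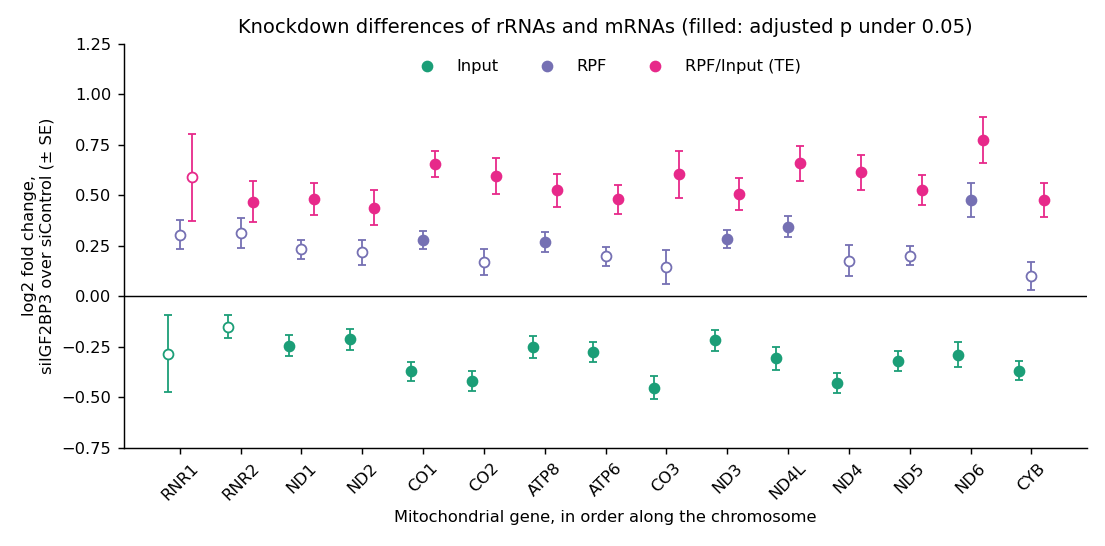
Log2 fold change of siIGF2BP3 over siControl (± SE, edgeR) in Input, in RPF and in RPF over Input (TE) for the 2 rRNAs and 13 mRNAs in order along the chromosome; filled symbols have an adjusted p under 0.05. All mRNAs lie below 0 in Input and above 0 in RPF, and their TE changes run from 0.44 to 0.78.

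By position, the mRNAs from MT-CO1 to MT-CO3 held 39.6% ± 0.685 of mitochondrial mRNA counts in siControl Input and 39.0% ± 0.414 in siIGF2BP3 Input (SD, n = 3 each), and MT-ND1 with MT-ND2 held 19.2% ± 0.900 and 20.9% ± 0.826. Over the 13 mRNAs, start position and Input level per kb in siControl gave a Pearson r of -0.49 and a Spearman rho of -0.40, and start position and RPF level an r of 0.08. MT-TF and MT-TV, the tRNAs next to the 12S rRNA, held 1.62% ± 1.08 of tRNA counts in siControl Input and 19.2% ± 0.642 (SD, n = 2) in siControl RPF. The 3 tRNAs between MT-CO1 and MT-CO3 went the other way, from 36.7% ± 2.03 to 3.10% ± 0.0612. These Input shares rest on few counts: 0.5 to 5.5 per library in MT-TF and 1.67 to 2.92 in MT-TV. Of the 3 others, MT-TK had 60.7 to 92.3 counts per Input library, MT-TD 6.25 to 12.7 and MT-TS1 0 to 5.

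By strand, MT-ND6 made up 0.428% to 0.465% of mitochondrial mRNA counts in siControl Input and 0.417% to 0.543% in siIGF2BP3 Input. In RPF it made up 2.25% to 2.36% in siControl and 2.53% to 2.87% in siIGF2BP3, without overlap (exact two-sided permutation p = 0.2, the smallest possible). The 8 minus-strand tRNAs held 29.4% to 30.0% of tRNA counts in siControl RPF and 30.2% to 30.9% in siIGF2BP3 RPF, also without overlap. In RPF 3 of the 8 minus-strand and 5 of the 14 plus-strand tRNAs were called, with medians of 0.49 and 0.53. Whether counting used strand is not given in the sources used here, so reads from MT-ND6 and from transcripts antisense to it cannot be told apart.

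Nuclear genes that act on mitochondrial RNA were then examined as a list of 53 that transcribe, process, modify or stabilise it. In RNA, 2 of the 53 were called, both higher, a share near the 4.05% of all genes called higher: FASTKD1 (0.27 ± 0.07, adjusted p 0.0147), a FAST-kinase domain protein of mitochondrial RNA, and TRIT1 (0.31 ± 0.09, adjusted p 0.0406), a tRNA-modifying enzyme. The list's median was -0.03. In RPF 1 gene was called (1.02% of all genes were called higher), TRIT1 (0.44 ± 0.08, adjusted p 0.0470). In TE 1 gene was called (0.814% of all genes higher), TFAM (0.30 ± 0.08, adjusted p 0.0475), which packages mitochondrial DNA and takes part in starting its transcription.

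Of 21 factors of mitochondrial translation, 1 was called in RNA, a share near the 4.05% of all genes called higher. It was the ribosome recycling factor MRRF at 0.34 ± 0.07 (adjusted p 0.00424). In RPF 2 were called, both higher, where 1.02% of all genes were. They were MTFMT at 0.61 ± 0.08 (adjusted p 0.0173), which formylates the initiator tRNA, and the elongation factor GUF1 at 0.52 ± 0.05 (adjusted p 0.00728). The same 2 were called in TE (0.814% of all genes higher), MTFMT at 0.82 ± 0.16 and GUF1 at 0.50 ± 0.09 (adjusted p 0.00693 each). The list's medians were 0.01, 0.03 and 0.04 in RNA, RPF and TE.

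Some nuclear-encoded subunits of the respiratory complexes also fell in Input. None of the 75 listed genes was called higher in RNA, where 4.05% of all genes were, and 10 were called lower, where 1.9% of all genes were: 4 of 37 in complex I (NDUFA6, NDUFB6, NDUFS4 and NDUFS5), 2 of 9 in complex III (UQCRB and UQCRC2), 2 of 11 in complex IV (COX6C and COX7C) and 2 of 18 in complex V (ATP5IF1 and ATP5PF). The list medians were -0.09, -0.08, -0.12 and -0.09, beside -0.31 for the mitochondrial mRNAs. The edgeR tests of RPF and TE called 0 of the 75, near the 1.66% and 2.17% of all genes called in either direction. The list medians lay between -0.06 and 0.01 in RPF and between 0.03 and 0.11 in TE. The difference between the nuclear and mitochondrial subunits itself was not tested. Of the 10 hepatocyte markers, 6 were also called lower in RNA (AFP, ALB, APOA1, GPC3, SERPINA1 and TF), with a list median of -0.21, and the part of this in the fall of mitochondrial mRNAs was not tested.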

How the data were processed

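RNA abundance (Input) and ribosome-protected fragments (RPF) of HepG2 cells were analysed, with 4 groups of 3 libraries taken from the sample labels. Each deposited file gives 1 library's estimated count for every gene. Per the labels and methods, adapters were removed with Cutadapt, STAR placed the reads on hg38 and featureCounts assigned them to genes. Versions and the strand setting are not given in the sources used here, and reads shared by several places appear as fractions of a count. Values were rounded to whole counts before testing, which moved at most 0.0445% of a library total. Intervals and p-values cover these libraries only, at the depths given in the report. Gene IDs matched GENCODE 44 for 58252 of 58721 genes.

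CPM used all counts of a library. The RNA, RPF, TE (interaction) and RPF over Input comparisons were fitted over all genes passing edgeR's filterByExpr with TMM factors and the robust quasi-likelihood test (edgeR 4.0.16, R 4.3.3), with Benjamini-Hochberg adjustment and a threshold of 0.05. These fits took siControl RPF replicates 2 and 3 as separate libraries. Shares were compared with exact permutation tests. The procedure was run on simulated counts with known changes and the same dispersion for every gene. The simulation held no outlying or near-identical libraries, so it does not cover these features of the data. The members and lists were chosen with earlier results of these data known. Library values were printed for mRNAs and rRNAs on which a result turned, for called tRNAs and for the 5 most abundant tRNAs in RPF, and listed genes were named only when called. Alternatives were DESeq2 1.42.0, other scaling factors, scaling without mitochondrial genes, no filter, replicate blocks, a gene length offset, nuclear copies added to their mitochondrial gene, siControl RPF replicates 2 and 3 summed, and each library left out. Chosen after seeing the data were the exon GC offset, the summed libraries in RPF over Input, and nuclear copies added together with leaving out siIGF2BP3 RPF replicate 1. Promoters were not used, and sequences were read from the hg38 reference.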

Additional observations from a re-analysis of the deposited data

How the results depend on the processing

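The RPF count of 13 called mitochondrial genes was the result that moved most. It was 23 with DESeq2 and 23 with the exon GC offset, 8 with upper-quartile factors, 7 with the gene length offset and 0 with siControl RPF replicates 2 and 3 summed. With single libraries left out it ranged from 0 to 32, and with nuclear copies added and siIGF2BP3 RPF replicate 1 left out it was 32. Calls over all genes also rose without siIGF2BP3 RPF replicate 1, as given above. The counts alone therefore do not show a change particular to the mitochondrial genes. The cause was not tested. Of the values of the 13 called genes over 17 alternatives, 130 kept their call, 91 lost it and 0 reversed. Single libraries left out gave 11 to 14 calls in RNA, 14 to 16 in TE, 33 to 36 in RPF over Input in siControl and 35 to 35 in siIGF2BP3, and the other alternatives gave 13 to 13, 14 to 16, 34 to 36 and 34 to 35. The RPF over Input counts include the 15 tRNAs that passed the filter only through RPF. RPF over Input of MT-CO3 in siControl reversed to 0.12 with nuclear copies added and to 0.18 with copies added and siIGF2BP3 RPF replicate 1 left out. The siControl RPF median of the 13 mRNAs moved from 381 to 487 CPM per kb with copies added, which by construction adds their counts. The ratio of the siIGF2BP3 to the siControl share of each class moved by less than its spread in every alternative run, and the shares themselves were not compared across alternatives.

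Replicate numbers did not pair the samples throughout: deviations of same-numbered libraries correlated between -0.16 and 0.33 over 10529 genes. The highest values were those of siControl RPF against siIGF2BP3 RPF (0.33, 0.29 and 0.09), and between the Input groups they lay between -0.04 and 0.06. In that RPF pair, replicates 1 and 2 correlated more with the same number than with any other (at best -0.25 and 0.20). Replicate 3 did not (0.14 with another number), so some pairing by number in RPF cannot be set aside. With the replicate number as a block, 13 mitochondrial genes were called in RNA, 13 in RPF and 15 in TE. A block that joined Input and RPF libraries of the same condition and replicate number gave 14 in TE, although no source says that these came from the same cells. Depth limits the tRNAs in Input most, where 15 of 22 had at most 18 counts per library.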
